A study of Rattus norvegicus with 105 samples.

Results

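The proliferation and cell cycle genes are 44 genes whose products copy the chromosomes, switch the cyclin-dependent kinases on, build the mitotic spindle and divide the cell. They were chosen by gene symbol: a gene was measured where a probe set of the Clariom S Rat array carried its symbol. Of the 44 genes, 35 were on such a probe set, 1 probe set each, among 22954 probe sets tested. The other 9 (Mcm5, Melk, Bub1b, Top2a, Ncapg, Ncaph, Cenpe, Kif4a and Anln) were not on a named probe set and were not analysed here.

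Gene expression was measured in the gastrocnemius, the large calf muscle, of male Sprague-Dawley rats of about 30 days of age at purchase. After at least 2 weeks of acclimation each rat received 4 metal pellets, 2 in each leg, and muscle was taken 1, 3, 6 or 12 months later, each interval from its own cohort. The pellets were of aluminum (Al), cobalt (Co), copper (Cu), depleted uranium (DU), iron (Fe), nickel (Ni), lead (Pb) or tungsten (W), and tantalum (Ta) pellets served as the sham control, so the controls too had surgery and carried an implant. Each of the 35 metal-by-month groups has 3 arrays, and nickel at 12 months was not analysed here. An array was hybridised with RNA pooled from 2 to 3 animals, so a replicate is a pool, a single rat cannot be told apart within it, and p-values measure the spread between pools. The defining transcripts of skeletal muscle fibres were bright on every array: Acta1, skeletal muscle actin, lay between 13.4 and 14.1 on the log2 scale and Ckm, muscle creatine kinase, between 12.6 and 13.5. In bulk muscle, more dividing cells and more of a transcript per cell cannot be told apart.

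A cell that divides first licenses its replication origins by loading the MCM helicase, then copies its DNA in S phase, and then builds a spindle and divides in M phase. Many of the genes for these steps are silent or low in cells at rest and are switched on together. E2F factors drive the S phase genes, and a complex with B-MYB and FOXM1, bound through CHR elements, drives the G2 and M phase genes. Adult muscle fibres have left the cell cycle, so in muscle these transcripts are known mainly from satellite cells, connective tissue cells, endothelium and infiltrating leukocytes.

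The promoters below are those of 4 of the 6 genes that rose with cobalt at 3 months, shown because each passed in that comparison. Whether these genes move together was not tested. Each is the run of 150 bases ahead of the annotated start, 5′ to 3′ on the gene's strand, from RefSeq on the rat assembly GRCr8. Capitals mark 3 kinds of letters, each searched on both strands, and neighbouring matches run together: the CHR element, spelled TTTGAA, the CCAAT box, and the E2F site, spelled as TTCCCGC or else as TTGGCGC or else as TTCGCGC or else as TTGCCGC. The stretches lie at chr1:199952594-199952743 (minus strand) for Mki67, chr20:19265143-19265292 (plus strand) for Cdk1, chr9:30733747-30733896 (minus strand) for Mcm3 and chr13:42404353-42404502 (minus strand) for Mcm6.
Mki67: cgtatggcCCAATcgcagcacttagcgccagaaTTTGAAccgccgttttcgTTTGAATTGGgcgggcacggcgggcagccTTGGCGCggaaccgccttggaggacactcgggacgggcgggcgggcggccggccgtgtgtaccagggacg
Cdk1: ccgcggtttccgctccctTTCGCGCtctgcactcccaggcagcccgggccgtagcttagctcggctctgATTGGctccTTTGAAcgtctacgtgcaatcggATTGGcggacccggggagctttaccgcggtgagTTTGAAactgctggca
Mcm3: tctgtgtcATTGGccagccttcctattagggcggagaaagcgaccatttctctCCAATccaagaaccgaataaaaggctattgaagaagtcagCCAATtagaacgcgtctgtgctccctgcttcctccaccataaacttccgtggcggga
Mcm6: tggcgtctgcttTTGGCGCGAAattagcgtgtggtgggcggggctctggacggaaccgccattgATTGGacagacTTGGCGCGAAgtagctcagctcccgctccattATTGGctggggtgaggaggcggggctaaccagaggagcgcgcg
Mki67 and Cdk1 showed CHR, CCAAT and E2F letters in these stretches. Mcm6, a gene of the replicative helicase, showed E2F and CCAAT letters and no CHR letters. Mcm3, its partner subunit, showed CCAAT letters alone in the printed stretch. Its 2 E2F matches lay outside that stretch, within the full window described next. In the full window, from 250 bases before to 50 after the start, 25 of the 35 measured genes had a sequence. Of those 25, 13 held the CHR letters (52%, against 18.3% of 33469 rat promoters) and 20 held CCAAT (80%, against 37.5%). CHR and CCAAT stood together in 12 of the 25 (48%, against 7.41%), and the E2F letters in 11 (44%, against 9.52%). A match of letters is a description of the sequence.

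Many of these transcripts were dim. Over all arrays, 16 of the 35 genes had a mean at or below 5.45 on the log2 scale, below which the dimmest 30% of the array lies, and 19 lay above it. By comparison 73.4% of all named genes lay above it. The dim 16 were Mcm3, Mcm6, Cdt1, E2f1, Foxm1, Ccna2, Ccnb1, Ccnb2, Cdk1, Bub1, Ttk, Cenpf, Kif11, Nusap1, Kif20a and Prc1. The median of the array's control probe sets was 4.09. Intensities near that value compress differences, so a fold change of a dim gene may be understated. Array medians lay between 6.36 and 6.54, no 2 arrays held identical values, and each array correlated with the others at a mean r of at least 0.970.

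Cobalt at 3 months raised 6 of the 35 genes, and nickel at 3 months raised 2 of those 6, in a limma fit over the arrays of every group, with Benjamini-Hochberg adjustment over all probe sets and a threshold of 0.05. Mki67, the gene of the proliferation marker Ki-67, led both comparisons, 3.61-fold higher with cobalt and 2.22-fold higher with nickel than with tantalum. Cobalt also raised Mcm3 2.76-fold, Ccna2 (cyclin A2) 2.61-fold, Cdk1 1.79-fold, Rrm2 1.76-fold and Mcm6 1.61-fold, and nickel raised Ccna2 2.00-fold. In the other 29 metal-by-month comparisons limma called no member, and between 0 and 5 of the 35 had an unadjusted p below 0.05. The share of all probe sets called in those 29 ranged from 0% to 3.02%, the highest for lead at 1 month. At an unadjusted p below 0.05 that share ranged from 3.81% to 20.1%. The 35 genes by 31 comparisons are shown in the map of differences from tantalum.

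**Figure D1:**
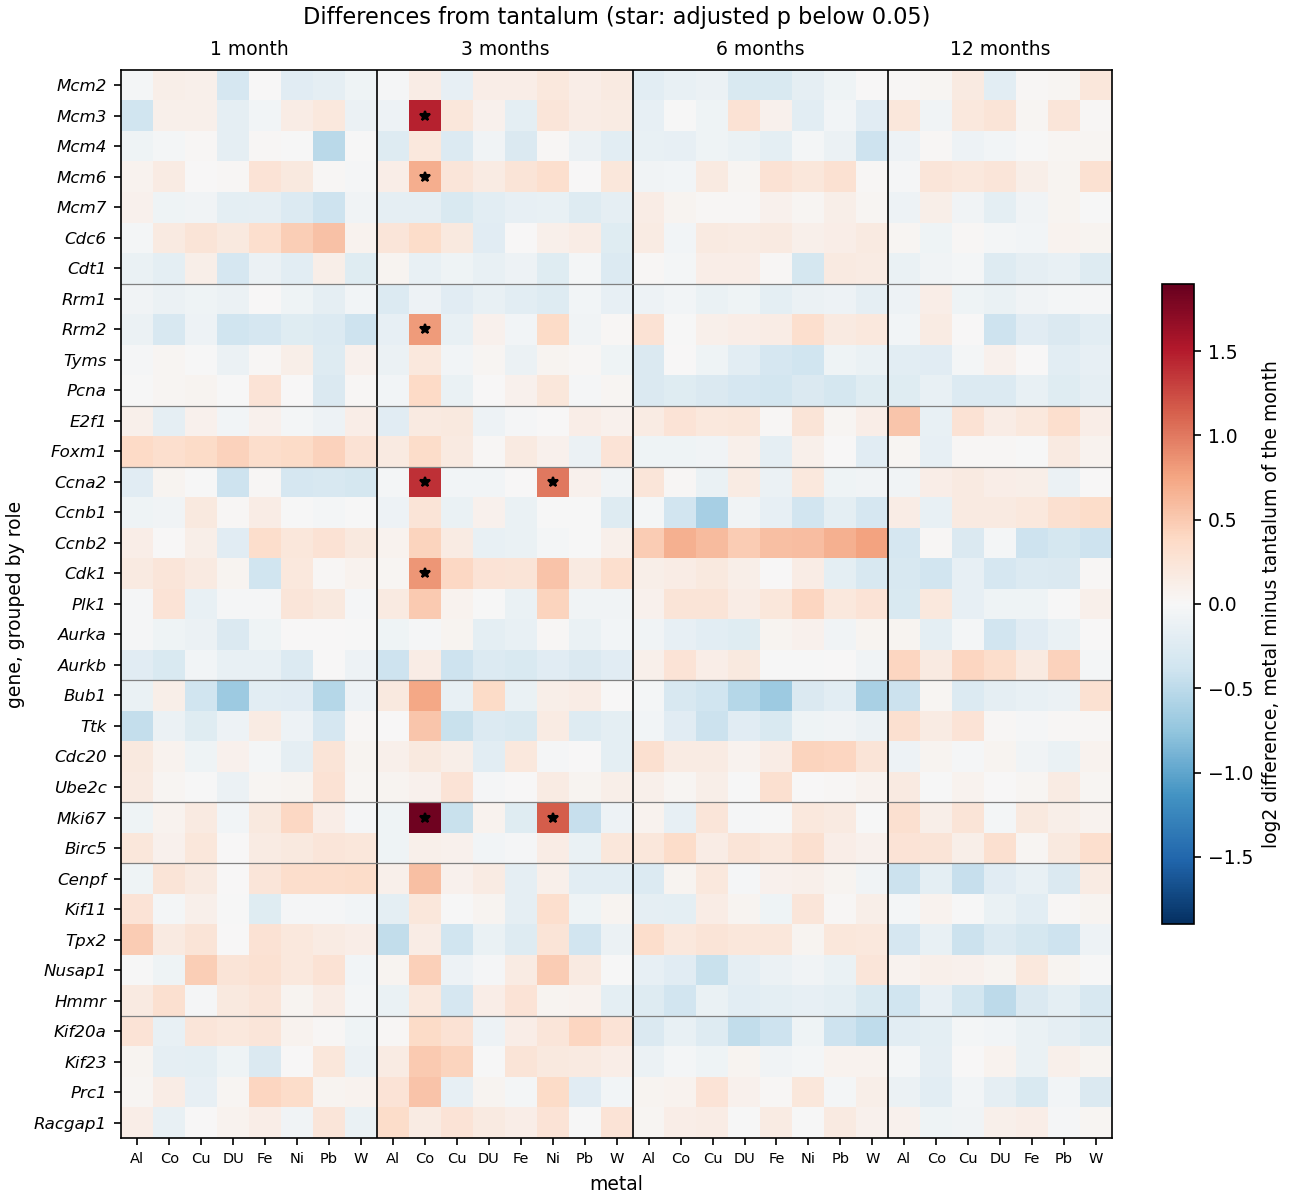
Log2 difference from tantalum of the same month for the 35 measured genes (rows, grouped by role, with lines between roles) in the 31 metal-by-month comparisons (columns), each from 3 arrays against 3, and a star where the adjusted p is below 0.05. The 8 stars lie in the cobalt column (6) and the nickel column (2) at 3 months, and the column-wide shades in Foxm1 at 1 month and Ccnb2 at 6 months come from comparisons that share the same 3 tantalum arrays.

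With cobalt at 3 months, 17.1% of the 35 genes passed, against 5.46% of all probe sets. All 6 calls were higher, against 4.87% of all probe sets called higher. At an unadjusted p below 0.05 there were 15 of 35 genes, with 15.4% of all probe sets past the same line. The median difference over the 35 genes was 0.35 on the log2 scale, against -0.05 over all probe sets, and 31 of the 35 lay above 0. In 17 genes the lowest cobalt array was above the highest of tantalum, a pattern seen in 11.1% of all probe sets, and in 1 gene, Mcm7, the highest cobalt array was below the lowest of tantalum, a pattern seen in 15.1%. The 19 brighter genes gave 2 of the calls, Mki67 and Rrm2, and the 16 dim genes gave 4. Rrm2 lay barely above the limit of the dim range (mean 5.4494 against 5.4486), with its cobalt arrays counted in that mean. Its median over the 35 group means was 5.40, below the limit. Its place among the brighter genes may therefore rest on cobalt at 3 months (6.32), and the split by brightness is not independent of these calls.

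Among the 7 measured genes of replication licensing and the helicase, 2 rose with cobalt. Mcm3 read 6.77, 6.59 and 6.56 on the 3 cobalt arrays and 5.25, 5.19 and 5.10 on the 3 tantalum arrays. The tantalum and cobalt arrays stood apart by more than the range within either group, and the difference was 1.46 ± 0.17 (log2, SE of the fit, n = 3 arrays a group, limma adjusted p = 1.83e-10). Mcm6 read 5.75, 5.72 and 5.59 with cobalt and 5.14, 5.01 and 4.85 with tantalum, a difference of 0.69 ± 0.16 (limma adjusted p = 0.0019). The remaining helicase subunits had smaller differences that did not pass: 0.21 for Mcm4, 0.15 for Mcm2 and -0.17 for Mcm7. These proteins sit in a single ring, and whether their genes differed from one another in response was not tested. Cdc6, which loads the ring on origins, differed by 0.35 and its partner Cdt1 by -0.14, and neither passed.

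Of the 4 genes of nucleotide supply and the replication clamp, 1 rose with cobalt. Rrm2, the small subunit of ribonucleotide reductase that is made in S phase, read 6.64, 6.24 and 6.09 with cobalt and 5.36, 5.80 and 5.36 with tantalum. Its groups did not overlap, and the difference was 0.82 ± 0.20 (limma adjusted p = 0.00396). It lost the call without cobalt replicate 1, the highest array (0.66, adjusted p = 0.0832). Rrm1, the large subunit of the same enzyme, differed by -0.10 (9.34, 9.45 and 9.30 against 9.48, 9.47 and 9.44; limma adjusted p = 0.733). Pcna, the sliding clamp of the replication fork, differed by 0.38 (adjusted p = 0.257) with all 3 cobalt arrays above all 3 of tantalum, and Tyms, thymidylate synthase, by 0.21. The transcription factors E2f1 and Foxm1 differed by 0.18 and 0.35 and did not pass.

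Of the 7 genes of cyclins and mitotic kinases, 2 rose with cobalt. Ccna2, the cyclin of S and G2 phase, read 5.96, 5.69 and 5.78 with cobalt against 4.53, 4.52 and 4.24 with tantalum. The difference was 1.38 ± 0.24 (limma adjusted p = 6.17e-06), and the lowest cobalt array stood more than 1 log2 unit above the highest tantalum array. Cdk1, the kinase that starts mitosis, read 5.31, 4.53 and 4.88 against 3.82, 4.02 and 4.37, all within the dim range. Its difference was 0.84 ± 0.22 (limma adjusted p = 0.00625), and it lost the call without cobalt replicate 1 (adjusted p = 0.134) or without tantalum replicate 1 (adjusted p = 0.0783). Plk1, a kinase of mitotic entry and exit, read 6.35, 6.38 and 6.60 against 5.82, 6.00 and 6.01 and missed the threshold (0.50 ± 0.16, limma adjusted p = 0.0537). The mitotic cyclins Ccnb1 and Ccnb2 differed by 0.25 and 0.42, Aurkb by 0.13 and Aurka by -0.02, and none of the 4 passed.

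Mki67 read 7.70, 7.56 and 7.72 with cobalt against 5.99, 5.96 and 5.46 with tantalum, a difference of 1.85 ± 0.22 (log2, limma adjusted p = 3.19e-10). Its product coats mitotic chromosomes, and it is made in cycling cells and not in resting ones. No array of another group reached the lowest of these 3 cobalt arrays. Birc5 (survivin), a subunit of the chromosomal passenger complex, differed by 0.09 and did not pass.

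Among genes that act later in mitosis no member passed with cobalt, though differences were above 0 throughout. With the other metals in place of tantalum, Racgap1 (-0.04) and Ube2c (-0.0042) turned below 0. All 4 genes of the spindle checkpoint and anaphase promotion lay above 0, with Bub1 at 0.73 (limma adjusted p = 0.0705) and Ttk at 0.52 (adjusted p = 0.21), both checkpoint kinases. The 5 genes of the kinetochore, spindle and motors lay between 0.14 and 0.58, the highest being Cenpf (adjusted p = 0.113), which binds kinetochores. The 4 genes of the central spindle and cytokinesis lay between 0.16 and 0.54, with Prc1, which bundles the spindle midzone, at 0.54 (adjusted p = 0.173) and the motor Kif23 at 0.50 (adjusted p = 0.0791). At an unadjusted p below 0.05 these 3 groups held 2 genes each.

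**Figure D2:**
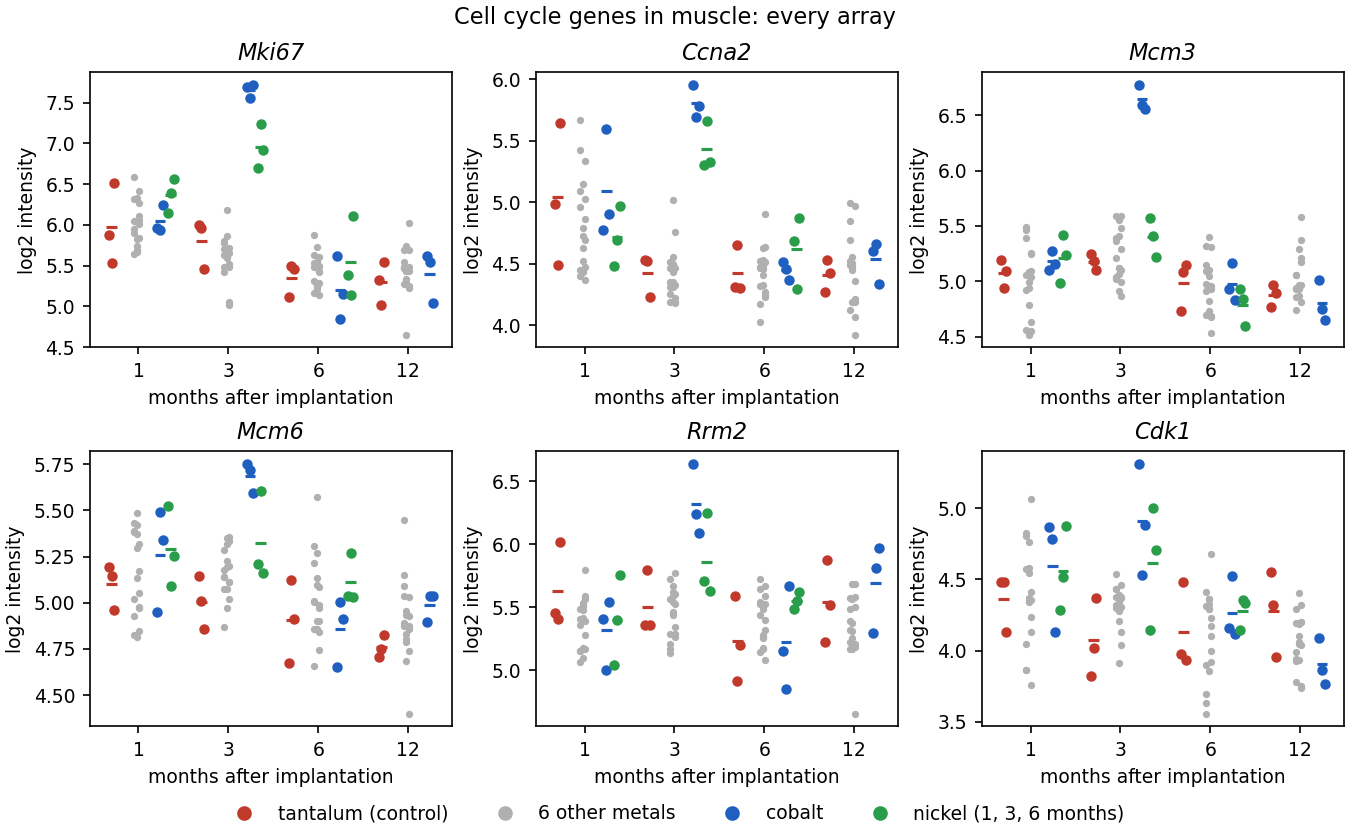
Log2 intensity of the 6 genes that rose with cobalt at 3 months, on every array, by month after implantation. Dots are arrays, short bars are means of 3 arrays for tantalum (red), cobalt (blue) and nickel (green, 1 to 6 months), and grey dots are the other 6 metals. The 3 cobalt arrays at 3 months lie above the grey and red arrays of that month in each panel for Mki67, Ccna2, Mcm3, Mcm6 and Rrm2, while the Cdk1 arrays, from 4.53 to 5.31, reach down to the grey ones.

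With nickel at 3 months, 2 of the 35 genes passed (5.71%), where 3.42% of all probe sets passed and 2.82% passed as higher, a share near that of the whole array. Mki67 read 6.70, 7.24 and 6.92 with nickel, all above the tantalum arrays given above, and the difference was 1.15 ± 0.22 (log2, limma adjusted p = 0.000253). Ccna2 read 5.31, 5.66 and 5.33, also above every tantalum array, with a difference of 1.00 ± 0.24 (limma adjusted p = 0.0042), and lost the call without nickel replicate 2 (0.89, adjusted p = 0.0599). Plk1 came next by p, at 6.33, 6.62 and 6.15, with a difference of 0.42 ± 0.16 that did not pass (limma adjusted p = 0.163). Mcm3, which rose with cobalt, read 5.57, 5.41 and 5.22 with nickel and overlapped tantalum (0.22 ± 0.17, limma adjusted p = 0.657). The median over the 35 genes was 0.15, against -0.02 over all probe sets. In 8 genes all 3 nickel arrays lay above all 3 of tantalum (9.75% of all probe sets do), and in 2 all 3 lay below (11% do).

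Cobalt and nickel were compared directly at 3 months, with no control arrays in the comparison. Of the 35 genes 1 differed: Mcm3 was 1.24 ± 0.17 higher (log2, 2.36-fold) with cobalt (limma adjusted p = 1.25e-07), where 2.2% of all probe sets passed. Mki67 was 0.71 ± 0.22 higher with cobalt and did not pass (limma adjusted p = 0.0866), although the lowest cobalt array lay above the highest nickel array. In 8 genes all 3 cobalt arrays lay above all 3 nickel arrays (8.5% of all probe sets do). In 0 genes did all 3 lie below, and the share of all probe sets that do was not counted. The difference between the metals was 0.38 in Ccna2, whose arrays at 5.69 to 5.96 with cobalt and 5.31 to 5.66 with nickel did not overlap, 0.29 in Cdk1 and 0.07 in Plk1, none of which passed.

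**Figure D3:**
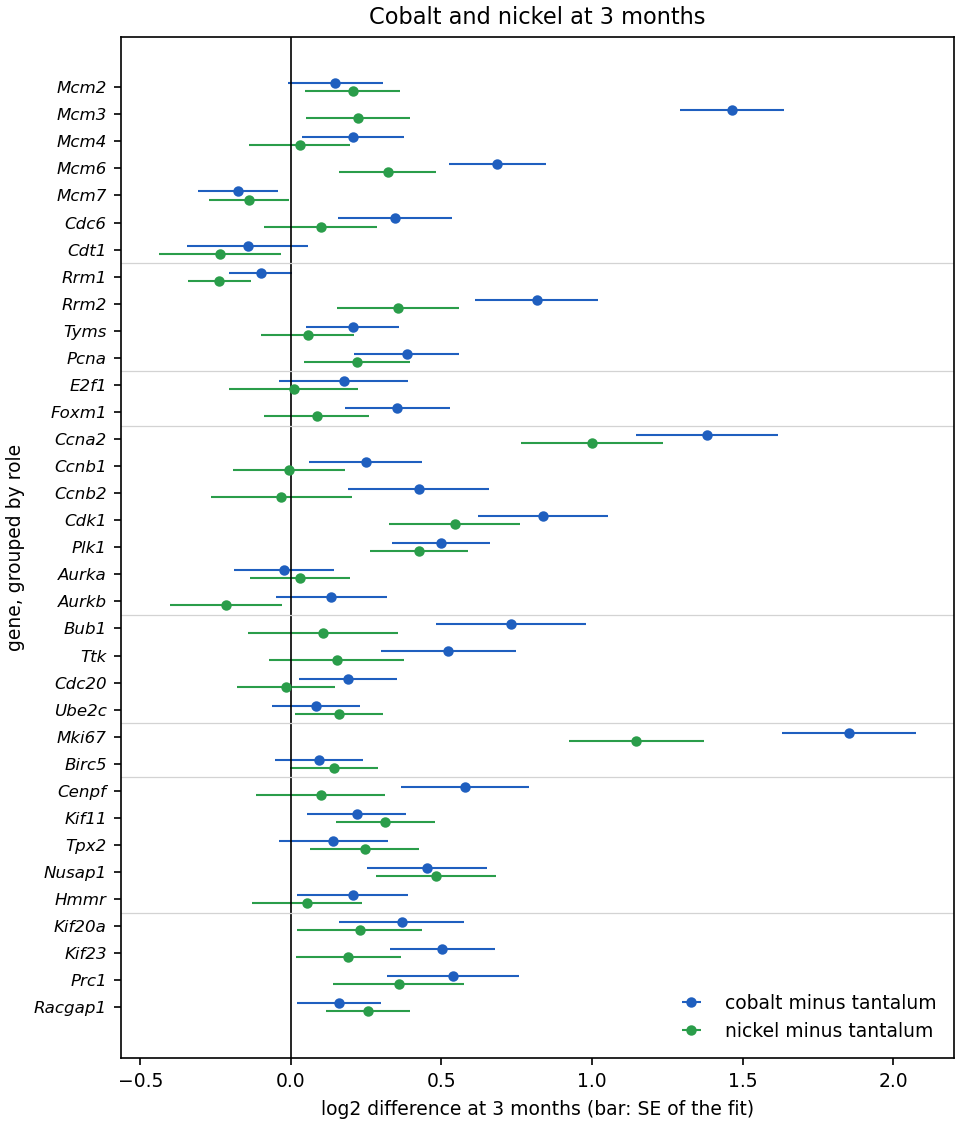
Log2 difference from tantalum at 3 months for the 35 genes, grouped by role, with cobalt in blue and nickel in green. Points are differences of means of 3 arrays and bars are standard errors of the fit. Mki67 and Ccna2 stand to the right for both metals, while Mcm3 stands at 1.46 for cobalt and 0.22 for nickel.

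Within single months, members were called with cobalt or nickel only at 3 months. That these genes differed most from tantalum at 3 months follows in part from how they were picked. In cobalt muscle, Mki67 means were 6.05 ± 0.17 at 1 month, 7.66 ± 0.09 at 3 months, 5.20 ± 0.39 at 6 months and 5.40 ± 0.32 at 12 months (SD, n = 3). Differences from tantalum of the same month were 0.07, 1.85, -0.15 and 0.11. The difference from tantalum changed between months with cobalt (limma moderated F) for 4 of the 35 genes, where 4.18% of all probe sets passed: Mcm3 (adjusted p = 7.18e-07), Mki67 (1.095e-06), Ccna2 (0.00507) and Rrm2 (0.0443). With nickel, Mki67 differed from tantalum by 0.39, 1.15 and 0.19 at 1, 3 and 6 months. The change between months passed for no gene, where 1.22% of all probe sets passed. At an unadjusted p below 0.05 there were 3 genes, with 9.79% of all probe sets past the same line. Ccna2 came nearest (adjusted p = 0.0536).

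As means over all their months, cobalt was higher than tantalum in 3 of the 35 genes (1.15% of all probe sets passed) and nickel in 2 (2.83% passed). Plk1 was on both lists, by 0.30 with cobalt (limma adjusted p = 0.0378) and by 0.35 with nickel (adjusted p = 0.0203). Mki67 was the other on both, by 0.47 and 0.58, and Mcm3 was on the cobalt list, by 0.37. Leaving out replicate 1 or 2 of every group ended all 5 of these calls. Plk1 is the one gene among them that did not pass in a single month. Over months 1, 3 and 6 the 8 metals differed among themselves in 4 genes (moderated F, 4.87% of all probe sets passed): Mki67 (limma adjusted p = 1.28e-06), Mcm3 (4.49e-06), Ccna2 (0.00158) and Plk1 (0.0231).

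Over the 35 groups, the highest group mean lay in cobalt at 3 months for 19 of the 35 genes and in nickel at 3 months for 4. How often these groups hold the highest mean over all probe sets was not counted. Lead at 1 month held the highest mean for 3 genes (Cdc20, Ube2c and Racgap1) and tantalum at 6 months for 2 (Rrm1 and Kif20a). For Mki67 the order was cobalt at 3 months (7.66), nickel at 3 months (6.95) and nickel at 1 month (6.37), and the lowest was cobalt at 6 months (5.20). The other 7 groups at 3 months, tantalum among them, had Mki67 means between 5.36 and 5.87, neighbours closer to each other than the pooled SD within groups of 0.28. For Mcm3 the order was cobalt at 3 months (6.64), nickel at 3 months (5.40) and copper at 3 months (5.39), with a pooled SD of 0.21, so the second and the third did not differ beyond their spread. Ube2c, a ubiquitin carrier of the anaphase-promoting complex, varied little: its group means ran from 6.85 to 7.24.

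Outside cobalt and nickel at 3 months, some sets of differences ran the same way for all 8 metals, in comparisons that share their 3 tantalum arrays. Ccnb2, cyclin B2, was between 0.48 and 0.77 higher than tantalum at 6 months for all 8 metals, and none passed (limma adjusted p between 0.453 and 0.965). The tantalum arrays at 6 months read 4.68, 4.40 and 4.32, the lowest group mean of the 35 for that gene (4.47 ± 0.19, SD). Foxm1 at 1 month was between 0.28 and 0.43 higher for all 8 metals, again with tantalum as the lowest of the 35 group means (3.90 ± 0.12). With lead at 1 month, the comparison with the most probe sets called among the remaining 29, Mcm4 was lower by 0.51 and Mcm7 by 0.39 and Cdc6 was higher by 0.56, and none passed (limma adjusted p = 0.0763, 0.085 and 0.0766).

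The 4 lists of other cell cycle genes, fixed by function, surround these results: G1 cyclins with the E2F and RB families, inhibitors of cyclin-dependent kinases with p53 targets, DNA replication, and mitosis. With cobalt at 3 months, when 4.87% of all probe sets passed as higher, 13 of 58 genes of the mitosis list rose (22.4%) and 0 fell. Hmgb2, a chromatin protein of dividing cells, rose by 1.07 ± 0.12 (limma adjusted p = 4.52e-11) and Knl1, the scaffold of the kinetochore, by 1.49 ± 0.22 (adjusted p = 1.61e-07). Cks2, which binds CDK1, rose by 1.02, and the tubulin gene Tubb5 by 0.89. In the DNA replication list 3 of 34 rose (8.82%): Tk1 (thymidine kinase) by 0.71, Prim1 (primase) by 0.69 and Dbf4, the activator of the CDC7 kinase, by 0.83. In the G1 list 3 of 20 rose (15%): Rbl1 (p107) by 1.16, Ccnd2 (cyclin D2) by 0.76 and Cdk6 by 0.57. Of 13 inhibitors and p53 targets 1 rose (7.69%), Cdkn1a (p21), which blocks cyclin-dependent kinases, by 1.00 ± 0.21 (limma adjusted p = 0.000429). The shares of the replication and inhibitor lists were thus near that of the array.

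With nickel at 3 months, when 2.82% of all probe sets passed as higher, 4 of the same 58 genes of the mitosis list rose (6.90%). These were Cks2 by 0.88, Knl1 by 0.79, and the tubulin genes Tubb5 by 0.65 and Tuba1b by 0.55. None of the 34 DNA replication genes passed in limma, and 2 had an unadjusted p below 0.05, where 13.6% of all probe sets did. Of the 13 inhibitors and p53 targets 3 rose (23.1%): Cdkn1a by 1.49 ± 0.21 (limma adjusted p = 4.48e-07), Plk2 by 0.68 and Gadd45a by 0.54. The G1 list gave 1 of 20 (5.0%, near the share of the array), Ccnd3 (cyclin D3), by 0.37. Cdkn1a rose beside Mki67 with both metals: its arrays read 8.14, 8.18 and 7.93 with cobalt, 8.80, 8.73 and 8.17 with nickel and 7.14, 7.12 and 6.98 with tantalum.

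Markers of other cells moved with these groups, and their part in the results for the cell cycle genes was not tested. With cobalt at 3 months, 5 of 5 pan-leukocyte genes rose (median 2.33 on the log2 scale), as did 13 of 15 T and NK cell genes (median 1.67), 12 of 15 macrophage genes (median 1.09) and 4 of 8 B and plasma cell genes (median 0.86). The mean of the T and NK cell list ran from 6.55 to 6.94 on the cobalt arrays, from 5.45 to 5.68 with nickel and from 5.11 to 5.25 with tantalum. Cd2 rose by 2.25, Klrk1 by 3.29 and Ccl5 by 2.33. With cobalt, none of 11 satellite cell and regenerating fibre genes, 8 fibroblast genes, 7 endothelial genes, 8 neutrophil genes, 4 erythroid genes or 9 muscle fibre genes passed in limma, with 3, 3, 0, 1, 0 and 0 at an unadjusted p below 0.05. Over all probe sets 15.4% were past that line. Of the 3 satellite cell and regenerating fibre genes, Myod1 (-0.62) and Pax7 (-0.24) were lower and Tnnt2 (0.70) was higher. Of 4 germinal centre genes 1 rose, Fas, which other cells also express.

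With nickel at 3 months, 6 of 11 satellite cell and regenerating fibre genes rose (median 0.76) and 6 of 8 fibroblast genes (median 0.96). Leukocyte lists also rose with nickel, with 4 of 5 pan-leukocyte genes, 10 of 15 macrophage genes, 3 of 8 B and plasma cell genes and 2 of 15 T and NK cell genes, and 1 of 8 neutrophil genes passed. Tnnt2 and Myh3, troponin and myosin of developing fibres, rose by 2.65 and 1.85. Of Pax7, Myf5, Myod1 and Myog on the same list, Myf5 rose by 0.96. Pax7 (-0.01), Myod1 (-0.29) and Myog (0.52) did not pass. The satellite cell and regenerating fibre list averaged 8.44 to 8.63 on the nickel arrays, 7.48 to 7.74 with cobalt and 7.49 to 7.60 with tantalum. Over the same arrays the mean of the 35 cell cycle genes was 5.77 to 6.01 with nickel, 6.07 to 6.17 with cobalt and 5.64 to 5.74 with tantalum.

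**Figure D4:**
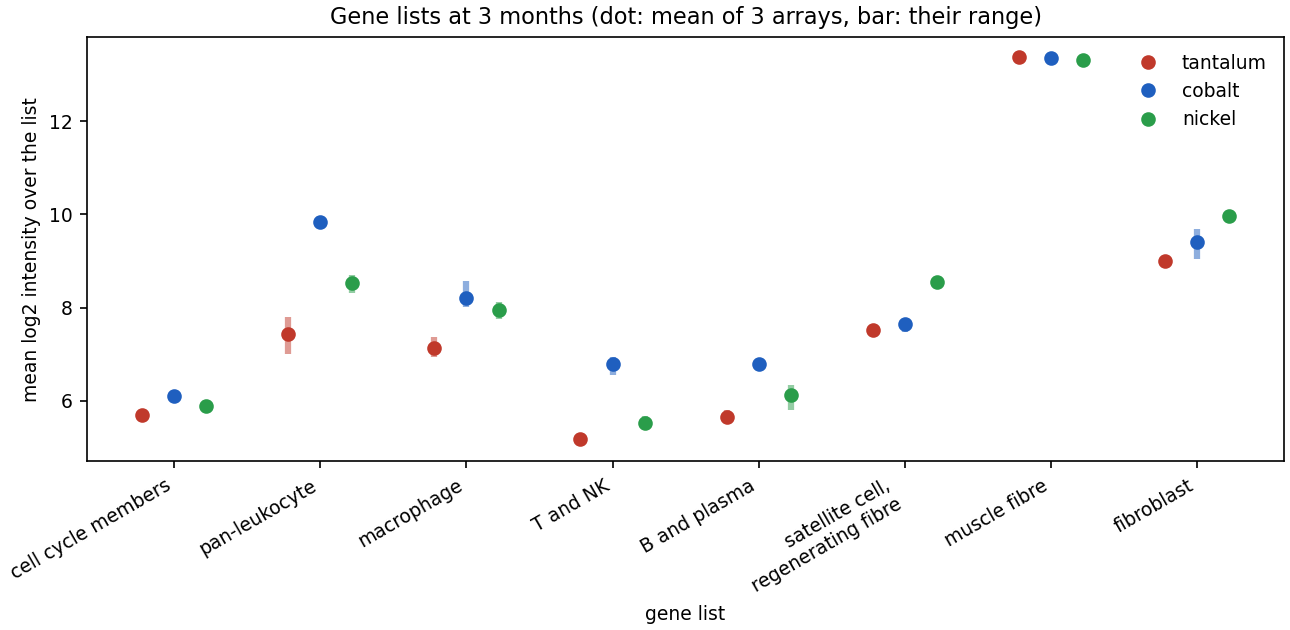
Mean log2 intensity over each gene list at 3 months for tantalum, cobalt and nickel; dots are means of 3 arrays and bars their range, and levels may be compared within a list only, since lists hold different probe sets. Cobalt stands highest in the cell cycle, leukocyte, macrophage, T and NK, and B and plasma lists. Nickel stands highest in the satellite cell and regenerating fibre list and in the fibroblast list.

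The 10 named genes outside the list whose 35 group means ran most like the 19 brighter members (Pearson r with their mean z-score) were Cd79b (r = 0.86), Tnfrsf14 (0.86), Zc3h12d (0.84), Gpr65 (0.83), Slpi (0.83), Myo1g (0.83), Itgal (0.83), Ctsz (0.82), Fcgr3a (0.82) and Cd7 (0.81). Cd79b is part of the B cell receptor, and Itgal is an integrin subunit of leukocytes. Without cobalt and nickel at 3 months, the same r over 33 groups lay between -0.11 and 0.37, so the likeness rested on those 2 groups. These values describe groups that share arrays and normalization, and carry no test.

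Over the months, Mki67 declined. As a mean over the 8 metals with all 4 months (all but nickel), it was 0.60 ± 0.08 lower at 12 than at 1 month (log2, limma adjusted p = 9.46e-10) and lower in 8 of 8 metals, by 0.29 to 0.69. Ccna2 fell by 0.44 ± 0.08, Prc1 by 0.41 ± 0.08 and Ccnb1 by 0.40 ± 0.07, each lower in 8 of 8 metals. Rrm1 rose by 0.26 ± 0.04 (limma adjusted p = 1.7e-08) and Pcna by 0.22 ± 0.06, each higher in 8 of 8 metals. Months cannot be told apart from the age of the rats, which were bought at the same age, or from the cohorts in which they were run. How arrays of different months were processed is not given in the sources used here.

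At 12 against 1 month 16 of the 35 genes passed, 45.7%, against 44.1% of all probe sets, so the share is that of the array as a whole. Of these, 12 were lower (20.7% of all probe sets were) and 4 were higher (23.4% were). The lower genes also included Cdk1 (by -0.34), Cenpf (-0.29), Mcm6 (-0.27), Ttk (-0.24), Tyms (-0.23), Mcm2 (-0.18), Plk1 (-0.15) and Kif11 (-0.15). Besides Rrm1 and Pcna, Mcm7 (0.24) and Cdc6 (0.18) were higher. The members of the helicase list moved in both directions, with Mcm2 and Mcm6 lower and Mcm7 and Cdc6 higher at 12 months. Cyclins and mitotic kinases gave 4 lower and 0 higher of 7.

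**Figure D5:**
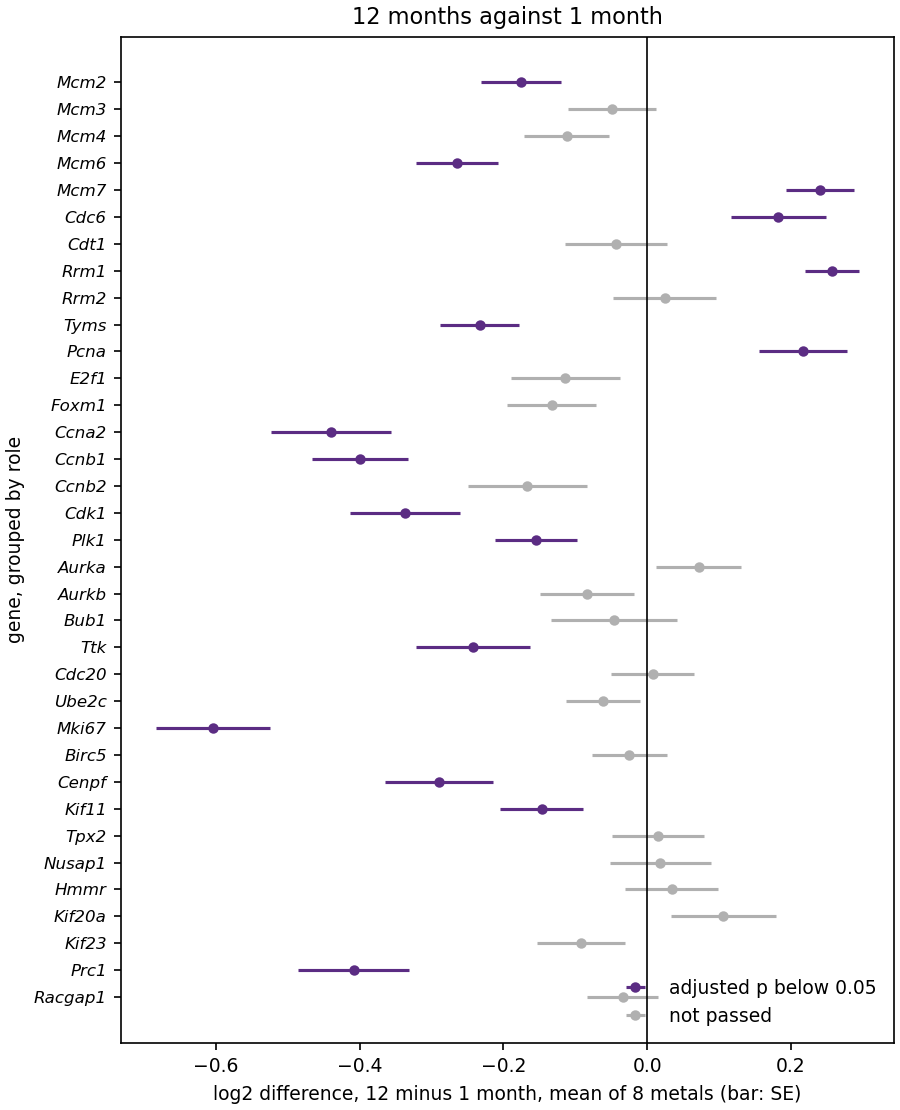
Log2 difference between 12 and 1 month after implantation for the 35 genes, as a mean over 8 metals, tantalum included. Points are differences, bars standard errors of the fit, and purple marks an adjusted p below 0.05; Mki67 stands lowest at -0.60 and Rrm1 highest at 0.26.

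Among steps between neighbouring months, 6 against 3 months held the most calls, both among the members and over all probe sets. At 6 against 3 months 16 of 35 genes passed (45.7%, against 39.6% of all probe sets), 14 lower and 2 higher. The same comparison was made with cobalt left out of the means compared, since 19 genes had their highest mean in cobalt at 3 months. The cobalt arrays stayed in the fit that estimates the spread, here and in the other comparisons with cobalt left out. In that comparison 9 of 35 passed (25.7%, below the 34.1% of all probe sets): Mcm2, Mcm3, Ttk, Mki67, Kif23 and Prc1 were lower and Rrm1, Tpx2 and Hmmr higher. Mki67 was lower by 0.50 with cobalt included and by 0.22 without it (limma adjusted p = 0.0344), while Prc1 was lower by 0.43 and 0.36. Leaving out replicate 1 of every group also left 9 calls. At 3 against 1 month 3 of 35 passed (20.1% of all probe sets did): Mcm3 was higher by 0.36, and Ccna2 and Tyms were lower by 0.30 and 0.20. With cobalt left out Mki67 was lower at 3 than at 1 month by 0.38 (limma adjusted p = 0.00052), a difference that was 0.14 and did not pass with cobalt included. Ccna2 was lower by 0.45 at this step with cobalt left out (limma adjusted p = 0.00013). Its difference at 6 against 3 months was then 0.01 and did not pass. Mcm3 was higher by 0.21 with cobalt left out, where 4 of 35 genes and 18.6% of all probe sets passed. At 12 against 6 months 1 gene passed (4.36% of all probe sets did), Tpx2, lower by 0.21. With cobalt left out none passed in limma, where 3.11% of all probe sets passed. An unadjusted p below 0.05 was reached by 2 genes, and the share of all probe sets at that line is not given here.

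In tantalum muscle alone, 1 of the 35 genes passed at 12 against 1 month, where 7.85% of all probe sets did. Mki67 read 5.87, 5.54 and 6.51 at 1 month and 5.32, 5.02 and 5.54 at 12 months, groups that met at 5.54, and it was lower by 0.68 ± 0.22 (log2, limma adjusted p = 0.043). It lost the call without replicate 1, 2 or 3 of every group (adjusted p between 0.0844 and 0.22). Ccnb1 read 5.09, 5.04 and 4.94 against 4.52, 4.47 and 4.49, a difference of -0.53 that did not pass (limma adjusted p = 0.0681).

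Between 12 months and 1 month, the other cell cycle lists are read against the 44.1% of all probe sets that passed. Cdkn1a was higher by 1.08 ± 0.08 at 12 months over the 8 metals (limma adjusted p = 7.43e-21), one of 5 higher and 3 lower among the 13 inhibitors and p53 targets (61.5% passed). Of 20 genes of the G1 list 9 were lower and 1 higher (50%, near the share of the array), with Tfdp1, the partner of E2F factors, lower by 0.51, Cdk2 by 0.43, Ccnd1 by 0.42, Cdk4 by 0.40 and Ccnd3 by 0.39. Of 58 genes of the mitosis list 13 were lower, led by the tubulin gene Tuba1b (-0.59), and 1 higher (24.1%). Of 34 DNA replication genes 3 were lower and 1 higher (11.8%), so both lists lay below the share of the array. Beside these, the cell marker lists at 12 against 1 month showed 8 of 8 fibroblast genes lower (median -1.39) and 7 of 7 endothelial genes (median -0.45). Also lower were 4 of 5 pan-leukocyte genes and 9 of 15 macrophage genes. Of 15 T and NK cell genes 0 passed in limma, and 1 had an unadjusted p below 0.05, where 50.6% of all probe sets did. The part of these marker lists in the differences of the cell cycle genes between these months was not tested.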

How the data were processed

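Values are the authors' deposited log2 intensities, taken unaltered. The submitters' processing notes name RMA (which corrects background, quantile-normalizes and summarises probes), oligo and R 4.0.1; whether all months were normalized in 1 run is not given in the sources used here. Of 22977 probe sets, 23 controls were left out. Symbols came from the platform annotation, matched by gene ID to GRCr8: 14855 probe sets had 1 symbol, none had several, and 8099 were not named here.

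Each of the 35 groups of 3 arrays got its own mean in a single limma 3.58.1 fit under R 4.3.3 (lmFit, eBayes, 70 residual and 7.25 prior degrees of freedom). All tests were two-sided, with Benjamini-Hochberg adjustment over 22954 probe sets in each of 54 comparisons and a threshold of 0.05. Fold changes are 2 to the power of the log2 difference. The script was tested on simulated data. The genes, the gene lists and the rules were chosen with earlier results of these data known.

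All members may be named; array values are given for members that passed (at least the 3 with the smallest p for nickel and cobalt at 3 months), and of other lists up to 6 passing genes with the smallest p. Exceptions chosen after their values were seen are Mcm3 with nickel and Rrm1, Ccnb1, Ccnb2 and Cdkn1a by array. Pax7, Myf5, Myod1 and Myog with nickel, and Myod1, Pax7 and Tnnt2 with cobalt, were also named after their values were seen. Replicate numbers are shared across groups in the labels. Same-numbered pools of metal and tantalum deviated together, every pair's correlation over 0.1, for 8 of 8 metals at 6 months and 5 of 7 at 12 months, and for none at 1 and 3 months. The number of arrays limits the precision.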

Additional observations from a re-analysis of the deposited data

Results flagged for a closer look

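The differences below were picked out because a test of the difference itself passed, between 2 metals, between months or among the metals. Mcm3 was higher with cobalt than with nickel at 3 months by 1.24 on the log2 scale (limma adjusted p = 1.248e-07), higher on 3 of 3 cobalt arrays. Its difference from tantalum also changed between months with cobalt (moderated F, adjusted p = 7.184e-07), from 0.10 at 1 month to 1.46 at 3 months and -0.01 at 6 months. The same moderated F passed for Mki67 (adjusted p = 1.095e-06), Ccna2 (0.005072) and Rrm2 (0.04428), for which the cobalt differences at 3 months were 1.85, 1.38 and 0.82.

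Among the 8 metals other than tantalum, means over months 1, 3 and 6 differed for Mki67 (limma moderated F, adjusted p = 1.28e-06), Mcm3 (4.49e-06), Ccna2 (0.001582) and Plk1 (0.02312). These tests share the cobalt and nickel arrays at 3 months with the comparisons of the report and are not independent of them. Groups of 3 arrays are too small for a check for outlying arrays.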

How the results depend on the processing

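Of 54 counts of passing genes, 35 stayed within 1.5 times under every alternative run, 19 did not. No difference that passed changed direction in any alternative. Of the differences that did not pass, 7 of 29 with cobalt and 16 of 33 with nickel at 3 months and 10 of 34 between these metals turned in at least 1 alternative, among them Aurkb with cobalt (0.13, and -0.08 without tantalum replicate 3) and, with the other metals as reference, Mcm7 (0.02) and Rrm1 (0.08) with cobalt and Mcm3 with nickel (-0.03). With cobalt at 3 months, Mki67, Mcm3, Ccna2 and Mcm6 passed in every setting that fitted them (highest adjusted p 0.000265, 0.000118, 0.000379 and 0.0293). The count of 6 became 3 without the dimmest 30% of probe sets (19 genes left in the fit). Rrm2, whose mean lay barely above the limit of the dim range, was among those 3. The count became 11 with array weights, 10 with the arrays of the month alone and 12 against the other metals. With nickel at 3 months Mki67 passed in 16 of 16 settings, and the count of 2 became 1 without the dimmest probe sets and 1 to 2 on leaving out arrays. Leaving out dim probe sets took the 16 dim genes out of the fit, so their calls could not recur. That run also moved cobalt against nickel from 1 to 0, the cobalt change between months from 4 to 2 and the difference among metals from 4 to 2. In it 3 against 1 month went from 3 to 1, 6 against 3 months from 16 to 8 and 12 against 1 month from 16 to 8. Array weights gave 2 for cobalt against nickel, 5 for 3 against 1 month, 0 for 12 against 6 months and 1 for the nickel change between months. The other metals as reference gave 1 for copper and for lead at 3 months, 1 for lead at 1 month and 5 for the cobalt mean. A second quantile normalization gave 1 for the nickel mean, 3 for tantalum at 12 against 1 month and 1 for the nickel change, and an intensity trend with robust estimates gave 1 for the nickel change. With cobalt left out of the means compared, a setting chosen after the data were seen, 6 against 3 months gave 9 and 12 against 6 months 0. Apart from the removal of the dim genes from the fit, the causes of these shifts were not tested. Leaving out replicates gave ranges of 0 to 1 for copper and for lead at 1 month, 0 to 2 for the cobalt mean, 0 to 1 for the nickel mean, 9 to 12 for 6 against 3 months, 0 to 1 for 12 against 6 months, 0 to 1 for tantalum at 12 against 1 month, 2 to 3 for the cobalt change, 0 to 1 for the copper change and 2 to 3 for the difference among metals. Rrm2 and Cdk1 with cobalt missed the threshold when adjusted over all 31 comparisons together (adjusted p = 0.0512 and 0.0718). With the replicate number as a block, cobalt at 3 months gave 8, lead at 1 month 2, the lead mean 1, tantalum at 12 against 1 month 2 and the nickel change 1. At 1 and 3 months the numbers do not pair the samples; the block changed no call of a member against tantalum within 6 or within 12 months. No member had several probe sets, so the choice between them had no effect. Arrays of metals at 12 months were left out by replicate number across all groups, not singly.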
